A study of Mus musculus with 8 samples.

Results

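The translation initiation and elongation factors were followed in pancreatic islets of Tcf1 knock-out mice and wild type mice. Members were all probe sets annotated to a single gene whose symbol begins with Eif1 to Eif6, Eef1 or Eef2, which gave 101 probe sets of 24965, for 57 of 13675 genes. Total RNA had been hybridised to 2 Affymetrix array types that carry different probe sets, MG-U74A and MG-U74B. Each type held 2 arrays of Tcf1 knock-out islets and 2 of wild type islets, called biological replicates by the submitters, 8 arrays in all. The labels give no age, strain, sex or pooling of the mice, and no treatment. Genotypes are those of the labels, as the targeted gene itself is not analysed here. MG-U74A carried 66 member probe sets for 49 genes and MG-U74B carried 35 for 23 genes, with 15 genes on both types. The comparison asks which parts of the translation machinery differ in transcript level between knock-out and wild type islets.

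Initiation factors bring the initiator tRNA and the small ribosomal subunit to an mRNA. The factor eIF2 carries the tRNA, eIF2B recharges eIF2 with GTP, and the eIF4F complex binds the cap and unwinds the leader, on which eIF3 holds the small subunit. Control is exerted by kinases that phosphorylate eIF2 and by 4E-binding proteins that hold the cap-binding protein eIF4E away from eIF4G. The elongation factor eEF1A then delivers charged tRNAs and eEF2 moves the ribosome along. Islet beta cells make large amounts of proinsulin, and the eIF2 kinase PERK, encoded by Eif2ak3, is known as a gene that secretory cells of the pancreas need.

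Values are linear intensities as deposited, and changes are differences of log2(intensity + 25), knock-out minus wild type, with their standard error. That scale understates the fold change of dim probe sets. A probe set was tested where its mean over the 4 arrays reached 62.5, and it is said to have risen or fallen where limma's adjusted p was below 0.05. The genotypes also differed in measures that are not about translation. The Gapdh control ratio (3' over 5' probe set) was 0.9 to 0.949 on knock-out arrays and 3.07 to 3.22 on wild type arrays, and the BioB control read 3596 to 11840 on knock-out arrays and 171 to 485 on wild type arrays. Other controls differed less. The actin ratio was 1.125 to 1.175 on knock-out arrays and 1.449 to 1.48 on wild type arrays. The Cre control on MG-U74A read 2417 to 2839 on knock-out arrays and 3361 to 3383 on wild type arrays. On MG-U74B it read 6869 to 8325 and 7813 to 7921. Summed intensities of marker genes on MG-U74A were 90554 to 100611 in knock-out and 150177 to 150943 in wild type for islet cells, where 14 of 14 tested probe sets fell. For acinar cells the sums were 4536 to 4970 in knock-out and 37475 to 37725 in wild type, where 6 of 6 fell. Lymphocyte markers summed to 37144 to 37837 in knock-out and 6380 to 6455 in wild type, where 18 of 20 tested probe sets rose, and of all 29, 3 were at or below 0 in both knock-out arrays and 6 in both wild type arrays. Most of these rises were repeated probe sets of 1 gene, Ighm, whose brightest read 12678 and 11698 in knock-out and 2362 and 2324 in wild type. The other rises were of Cd79a, Cd79b, Cd52, Ccr7, Cd3d, Ptprc and Ms4a1, and a further Ms4a1 probe set did not pass. Macrophage and dendritic markers summed to 19021 to 19079 in knock-out and 5574 to 5759 in wild type (10 of 11 rose), and fibroblast and stellate markers to 20420 to 22008 in knock-out and 6387 to 6432 in wild type (11 of 13 rose, 1 fell). Duct markers summed to 5884 to 6218 in knock-out and 7349 to 7694 in wild type (2 of 7 rose, 4 fell), and endothelial markers to 2946 to 3011 in knock-out and 2248 to 2260 in wild type (6 of 9 rose, 1 fell). These measures stand beside every result here, and their part in the results was not tested. In bulk tissue, fewer cells of a type and less RNA per cell cannot be told apart.

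On MG-U74A, transcripts of translation factors moved both ways. Of the 66 member probe sets 46 passed the filter on low values. Among these 13 rose, a share of 28.3% where 23.9% of all 7517 tested probe sets rose. Another 16 fell, a share of 34.8% against 29.0% of all tested, and 17 did not pass. Without wild type replicate 1 the members had 8 rises and 9 falls, and without wild type replicate 2 they had 8 rises and 10 falls. In either direction 52.9% of all tested probe sets were called. The genotypes did not overlap for 36 of the 46, where 79.1% of all tested probe sets did not overlap. The median log2 change of the tested members was -0.05, against -0.09 for all tested probe sets. As a set the factors stood near the background of the array, while paralogs of eEF1A and eIF4A and subunits of eIF3 went opposite ways. Changes of at least 1 log2 unit were seen for 4 rises (Eef1a1, Eef2, Eif4b and Eef1d) and 2 falls (Eif4g3 and Eif2ak3), where 10.9% of all tested probe sets rose and 10.3% fell that far.

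**Figure D1:**
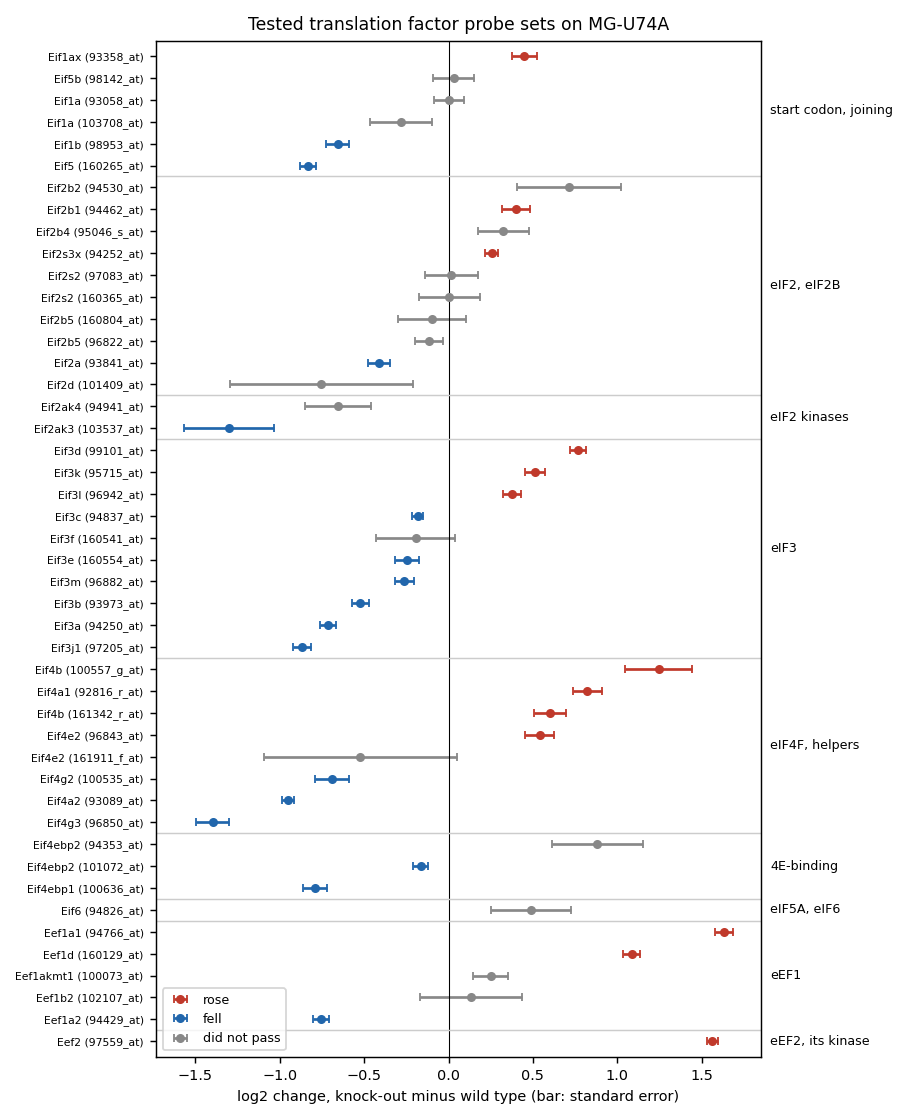
Log2 change (knock-out minus wild type, horizontal axis) of each tested translation factor probe set on MG-U74A, grouped by role from top to bottom; points are the fitted changes from 2 knock-out and 2 wild type arrays and bars their standard errors. The elongation factors Eef1a1, Eef2 and Eef1d lie at 1.63, 1.56 and 1.09 on the right, and Eif4g3 and Eif2ak3 at -1.40 and -1.30 on the left.

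Among elongation factors on MG-U74A, Eef1a1, Eef2 and Eef1d rose and the tissue-restricted Eef1a2 fell. Eef1a1, the widely expressed form of the tRNA-delivering factor, read 17820.2 and 16232 on the knock-out arrays, against 5468 and 5457 on the wild type arrays. It rose by 1.63 ± 0.05 (adjusted p = 2.26e-04), a ratio of 3.12, and both knock-out arrays lay far above both wild type arrays. Eef2, which translocates the ribosome, read 4935 and 4853 in knock-out islets, against 1616 and 1661 in wild type islets. It rose by 1.56 ± 0.03 (adjusted p = 1.05e-04), a ratio of 2.99, with no overlap. The exchange factor subunit gene Eef1d read 1469.7 and 1392 on the knock-out arrays, against 659 and 663 on the wild type arrays, and rose by 1.09 ± 0.05 (adjusted p = 3.72e-04) with no overlap. Eef1a2, the form of eEF1A known from neurons and muscle, read 708 and 685 in knock-out islets, against 1183 and 1205 in wild type islets. Its transcript fell by 0.76 ± 0.05 (adjusted p = 7.14e-04), both knock-out arrays being below both wild type arrays. The paralogs Eef1a1 and Eef1a2 therefore changed in opposite directions. All 4 calls held under the 11 alternatives run.

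**Figure D2:**
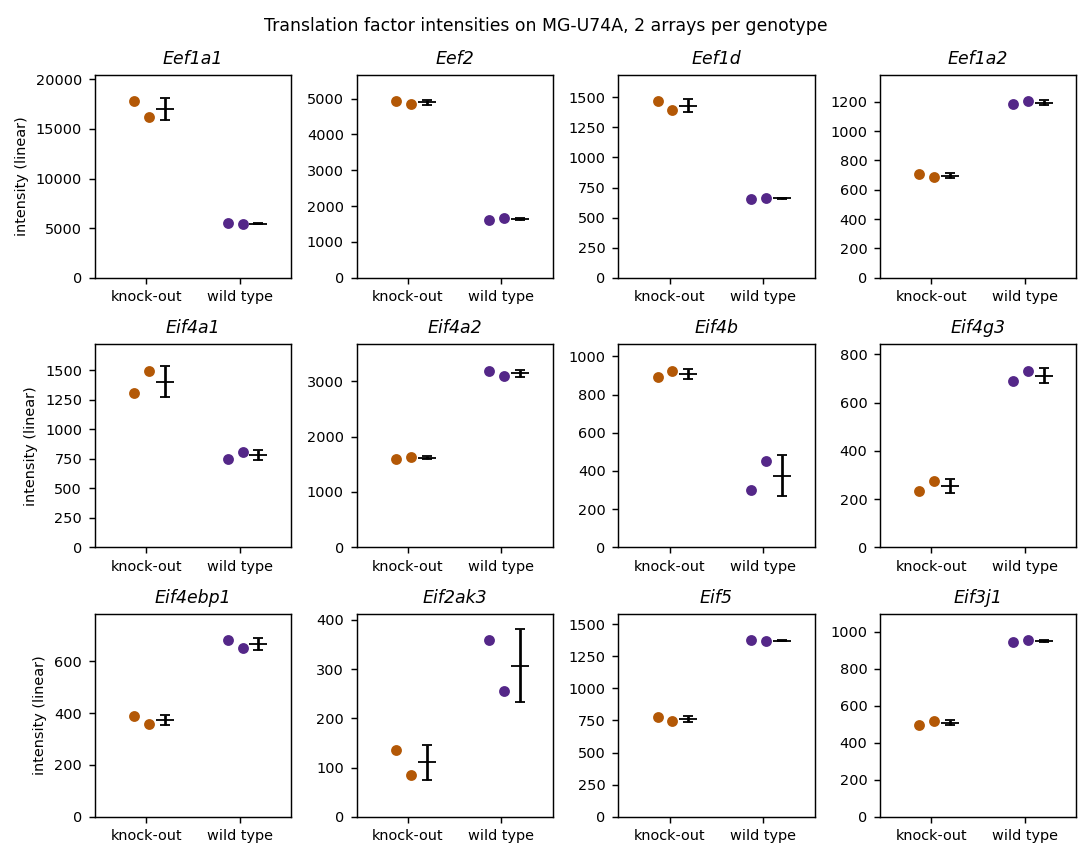
Linear intensity (vertical axis, each panel from 0) of 12 translation factor genes on MG-U74A; points are the 2 knock-out arrays (left) and the 2 wild type arrays (right), and the bars show the mean and SD. Eif4b is shown by its 100557_g_at probe set. Only called probe sets are shown, and in every panel the knock-out points lie wholly above or wholly below the wild type points.

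Other elongation members on MG-U74A did not pass. Eef1akmt1, which methylates eEF1A, read 216 and 219 on the knock-out arrays, against 185 and 173 on the wild type arrays, a change of 0.25 ± 0.10 (adjusted p = 0.112) without overlap. Eef1b2, another exchange factor subunit, read 99.9 and 53.2 in knock-out islets, against 70.2 and 60.2 in wild type islets, a change of 0.13 ± 0.30 (adjusted p = 0.731) with overlapping genotypes, and it turned to -0.20 without knock-out replicate 1. On MG-U74B the eEF1A methyltransferase gene Eef1aknmt read 1039 and 863 on the knock-out arrays, against 418 and 526 on the wild type arrays, and rose by 0.98 ± 0.19 (adjusted p = 0.0314) without overlap. That call ended without any 1 of the 4 arrays (adjusted p = 0.078 to 0.163), with no filter (0.102) and with no variance trend (0.0816). Eef2k, the kinase that inhibits eEF2, had 2 tested probe sets there. Its 115267_at probe set read 689 and 506 in knock-out islets, against 252 and 338 in wild type islets, a change of 0.96 ± 0.25 (adjusted p = 0.0657) that missed the threshold with no overlap. The 163206_at probe set read 403 and 148 on the knock-out arrays, against 219 and 203 on the wild type arrays, a change of 0.21 ± 0.49 (adjusted p = 0.788), with knock-out replicates on either side of the wild type pair. Eef1e1, a member of the multisynthetase complex, read 984 and 1295 in knock-out islets, against 1080.3 and 969.6 in wild type islets (0.14, adjusted p = 0.599). Eef1akmt1 read 519.8 and 279.7 in knock-out and 379 and 394 in wild type islets on this array type (-0.01, adjusted p = 0.98). Eef1akmt2 read 305 and 372 in knock-out and 406 and 321 in wild type islets (-0.09, adjusted p = 0.802), so these 3 had overlapping genotypes. A further probe set of Eef2 on MG-U74B read -1.1 and -71.6 in knock-out and -68.5 and -88.7 in wild type islets and was not tested, as were both probe sets of Eef1g.

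Many transcripts of the elongation machinery, those of ribosomal proteins, Eef1a1 and Eef2 among them, are known to begin with a C followed by a run of pyrimidines, an element that couples their translation to nutrient signalling. The letters at the start annotated by RefSeq are shown for 3 elongation factors and for Eif3f, which matches the pattern. Each line gives 30 bases before and 30 bases from the annotated start (assembly GRCm38.p6, read along the gene), with the first 5 bases from that start in capitals.
Eef1a1 (chr9:78481695-78481754, minus strand): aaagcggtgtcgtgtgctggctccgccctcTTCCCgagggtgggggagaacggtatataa
Eef2 (chr10:81176601-81176660, plus strand): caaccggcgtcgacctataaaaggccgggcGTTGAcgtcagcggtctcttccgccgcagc
Eef1a2 (chr2:181156986-181157045, minus strand): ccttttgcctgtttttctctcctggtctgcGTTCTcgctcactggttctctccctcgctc
Eif3f (chr7:108934385-108934444, plus strand): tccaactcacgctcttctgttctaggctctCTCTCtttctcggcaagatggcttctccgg
A C at the annotated start followed by at least 4 C or T was found for 2 of the 46 members with a window in the RefSeq table (4.35%), Eif3f and Eif2s3x, against 813 of 27025 genes (3.01%). Of the 27 ribosomal protein genes on the arrays with a window 5 (18.5%) matched. The annotated starts of Eef1a1 and Eef2 do not have these letters, which says only that they are absent at this base of the annotation. On MG-U74A Eif3f read 116 and 147 on the knock-out arrays, against 186 and 125 on the wild type arrays, a change of -0.19 ± 0.23 (adjusted p = 0.526) with overlapping genotypes.

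In the cap-binding complex and its helpers, 4 of 8 tested probe sets on MG-U74A rose and 3 fell, where 23.9% of all tested probe sets rose and 29.0% fell. The helicase paralogs went opposite ways. Eif4a1, which encodes an RNA helicase that unwinds leaders, read 1309.7 and 1496 on the knock-out arrays, against 751 and 809.6 on the wild type arrays, and rose by 0.82 ± 0.08 (adjusted p = 0.00283). Eif4a2, its close relative, read 1600.0 and 1637 in knock-out islets, against 3195 and 3106 in wild type islets, and fell by 0.95 ± 0.04 (adjusted p = 2.81e-04). Neither pair of genotypes overlapped, and both calls held under the 11 alternatives. Whether probes of these near-identical genes cross-hybridise was not tested.

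The helper gene Eif4b, whose product stimulates eIF4A, rose on both tested probe sets. Its 100557_g_at probe set read 891 and 926 on the knock-out arrays, against 301 and 450.1 on the wild type arrays, and rose by 1.25 ± 0.20 (adjusted p = 0.00911). The 161342_r_at probe set read 255 and 261 in knock-out islets, against 161 and 162 in wild type islets, and rose by 0.60 ± 0.10 (adjusted p = 0.0094). The knock-out arrays were the higher ones on each. The first call ended without knock-out replicate 1 (adjusted p = 0.0601), without knock-out replicate 2 (0.0646) and with no filter (0.054), the second without wild type replicate 1 (0.0716) or 2 (0.0711). The other Eif4b probe sets on this array type, 100556_at and 100558_at, read between -28.3 and 5.1 on all arrays and were not tested.

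The eIF4G family genes among the members, Eif4g3 and Eif4g2, fell on MG-U74A. No member probe set on either array type was annotated to Eif4g1, so that gene was not followed. Eif4g3, a scaffold that joins eIF4E, eIF4A and the poly(A)-binding protein, read 235 and 275 on the knock-out arrays, against 689.9 and 733 on the wild type arrays. It fell by 1.40 ± 0.10 (adjusted p = 0.00102), which was the largest fall among members on MG-U74A, and its call held under the 11 alternatives. Eif4g2, a relative that lacks the eIF4E site and serves cap-independent initiation, read 157 and 160.2 in knock-out islets, against 282 and 261 in wild type islets, and fell by 0.69 ± 0.10 (adjusted p = 0.00742). The genotypes did not overlap, but that call was lost on leaving out wild type replicate 1 (adjusted p = 0.0764) or 2 (0.057). On MG-U74B a probe set of Eif4g2 from the class that can match several related transcripts read 4439 and 4407 on the knock-out arrays, against 3572 and 5274 on the wild type arrays. Wild type replicates there lay on either side of the knock-out pair (0.03 ± 0.20, adjusted p = 0.938).

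The cap-binding protein gene Eif4e itself was too dim to test. Its brighter probe set read 32.9 and 35.5 on the knock-out arrays, against 39 and 47.4 on the wild type arrays. Eif4e2, a relative that represses some mRNAs, had 2 tested probe sets on MG-U74A. On 96843_at it read 313 and 301 in knock-out islets, against 205 and 201 in wild type islets, and rose by 0.54 ± 0.09 (adjusted p = 0.00942), a call lost on leaving out wild type replicate 1 (adjusted p = 0.0678) or 2 (0.0753). Its 161911_f_at probe set read 193 and 48.2 on the knock-out arrays, against 176 and 139 on the wild type arrays, with knock-out replicates on either side of the wild type pair (-0.52 ± 0.57, adjusted p = 0.488). On MG-U74B the 163117_at probe set of Eif4e2 read 450.4 and 383 in knock-out islets, against 236 and 49.4 in wild type islets, a change of 1.66 ± 0.64 (adjusted p = 0.143) without overlap. Of 2 tested Eif4e3 probe sets there none passed, at -0.35 (adjusted p = 0.219) and -0.09 (adjusted p = 0.837).

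Of the 4E-binding proteins, Eif4ebp1 fell. This gene encodes 4E-BP1, which withholds eIF4E until it is phosphorylated, and is known in beta cells as a target of the transcription factor ATF4. It read 388 and 359.9 on the knock-out arrays, against 682 and 649.8 on the wild type arrays. Its transcript fell by 0.79 ± 0.07 (adjusted p = 0.00182) with no overlap, under each of the 11 alternatives. Eif4ebp2 gave mixed values. On the 101072_at probe set it read 865 and 882 in knock-out islets, against 972 and 992 in wild type islets, and fell by 0.16 ± 0.04 (adjusted p = 0.0367), a small change whose call was lost on leaving out wild type replicate 1 (adjusted p = 0.179) or 2 (0.239), with quantile normalization (0.078), with no variance trend (0.12) and with a replicate block (0.096). Its 94353_at probe set read 107 and 171 on the knock-out arrays, against 54 and 71.6 on the wild type arrays, a change of 0.88 ± 0.27 (adjusted p = 0.0548) in the other direction. That change passed without knock-out replicate 1 (0.0337) and with a replicate block (0.0409), so the direction of Eif4ebp2 differed between its probe sets. Eif4enif1, which carries eIF4E into the nucleus, read on MG-U74B 633 and 637 in knock-out islets, against 576 and 739 in wild type islets, with the knock-out pair inside the wild type range (-0.04 ± 0.17, adjusted p = 0.894).

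Of the 2 eIF2 kinase genes bright enough to test on MG-U74A, 1 fell and the other missed the threshold. Eif2ak3, encoding the endoplasmic reticulum kinase PERK, read 136 and 85.1 on the knock-out arrays, against 359 and 255 on the wild type arrays. It fell by 1.30 ± 0.27 (adjusted p = 0.0191), and both wild type arrays were above both knock-out arrays. The call was lost on leaving out wild type replicate 1 (adjusted p = 0.0918), without knock-out replicate 2 (0.0683) and with no filter (0.0822). Eif2ak4, encoding GCN2, which senses uncharged tRNA, read 58.3 and 45.5 in knock-out islets, against 98.1 and 93.2 in wild type islets. Its change of -0.65 ± 0.20 (adjusted p = 0.0516) missed the threshold without overlap, at a knock-out level below the mean that the filter asks for. The change passed in only 4 of the 10 alternatives run. These were quantile normalization (adjusted p = 0.0442), a constant of 20% of the trimmed mean (0.0485), no variance trend (0.0196) and leaving out knock-out replicate 1.

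Eif2ak1, encoding the haem-regulated kinase HRI, had 2 tested probe sets on MG-U74B that went opposite ways. The 111092_at probe set read 24.1 and 14.4 on the knock-out arrays, against 256 and 148 on the wild type arrays. It fell by 2.33 ± 0.51 (adjusted p = 0.0415), at a knock-out level below the mean that the filter asks for, so the size depends on the constant added. That call ended without any 1 of the 4 arrays (adjusted p = 0.102 to 0.154), with no filter (0.122) and with a replicate block (0.0642). On 165107_f_at the gene read 1829.5 and 2148 in knock-out islets, against 1799 and 1711 in wild type islets, higher in knock-out without overlap and short of the threshold (0.17 ± 0.12, adjusted p = 0.359). Eif2ak2, encoding the double-stranded RNA kinase PKR, was not tested on either type. On MG-U74A it read 56.2 and 43.7 in knock-out and 39.6 and 54.7 in wild type islets, which overlap.

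The kinases act on eIF2, which eIF2B recharges. Of 10 tested probe sets of eIF2, eIF2B and related factors on MG-U74A, 2 rose, 1 fell and 7 did not pass, where 52.9% of all tested probe sets were called (23.9% rose and 29.0% fell). Eif2s3x, the X-linked gene of the gamma subunit of eIF2, read 1842 and 1895 on the knock-out arrays, against 1570.1 and 1551 on the wild type arrays, and rose by 0.26 ± 0.04 (adjusted p = 0.00706). Eif2b1, the alpha subunit of eIF2B, read 386 and 399 in knock-out islets, against 277 and 305 in wild type islets, and rose by 0.40 ± 0.08 (adjusted p = 0.0195). Eif2a, a separate factor that can bring the initiator tRNA without eIF2, read 352 and 343 on the knock-out arrays, against 462 and 481 on the wild type arrays, and fell by 0.41 ± 0.07 (adjusted p = 0.00925). None of the 3 overlapped, and each call was lost on leaving out wild type replicate 1 (adjusted p = 0.0707, 0.121 and 0.0679 in the order given) and without wild type replicate 2 (0.0818, 0.0704 and 0.0908). That of Eif2b1 also ended without knock-out replicate 2 (0.0603). The beta subunit gene Eif2s2 had changes of 0.02 (adjusted p = 0.939) and 0.01 (adjusted p = 0.985) on its 2 probe sets, and Eif2b5, the catalytic subunit of eIF2B, of -0.12 (adjusted p = 0.295) and -0.10 (adjusted p = 0.704), all short of the threshold. Eif2b2 stood at 0.71 (adjusted p = 0.124) on MG-U74A and 0.59 (adjusted p = 0.234) on MG-U74B, Eif2b4 at 0.33 (adjusted p = 0.144), Eif2b3 at 0.10 (adjusted p = 0.639) and Eif2d at -0.75 (adjusted p = 0.305).

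Most tested probe sets in a list for the response to eIF2 phosphorylation fell in knock-out islets. The list holds genes of that response together with subunits of the eIF2 phosphatase, and not all of them are known as induced genes. Of 12 tested on MG-U74A, 8 fell, 0 rose and 4 did not pass, with a median log2 change of -0.81. Over all tested probe sets the share that fell was 29.0% and the median -0.09. The transcription factor gene Atf5 read 229 and 197 on the knock-out arrays, against 1211 and 1197 on the wild type arrays, and fell by 2.37 ± 0.09 (adjusted p = 2.58e-04). Nupr1, a stress-induced chromatin protein, read 1166 and 1118 in knock-out islets, against 3803 and 3864 in wild type islets, and fell by 1.73 ± 0.04 (adjusted p = 1.09e-04). Ddit3, encoding CHOP, read 178 and 257 on the knock-out arrays, against 637 and 630.0 on the wild type arrays, and fell by 1.46 ± 0.18 (adjusted p = 0.00448). In each the genotypes were well apart. Asns, asparagine synthetase, read 90.8 and 86.9 on the knock-out arrays, against 366 and 378 on the wild type arrays on 161221_f_at, and fell by 1.80 ± 0.10 (adjusted p = 6.57e-04). On 95133_at it read 1189 and 1435 in knock-out islets, against 2254 and 2293 in wild type islets, and fell by 0.79 ± 0.10 (adjusted p = 0.0049). Atf4, the factor translated under eIF2 phosphorylation, read 2562 and 2380.3 in knock-out islets, against 3164 and 3170.0 in wild type islets, and fell by 0.36 ± 0.05 (adjusted p = 0.00574), a call lost on leaving out wild type replicate 1 (adjusted p = 0.0528) or 2 (0.0538). Ppp1r15a and Ppp1r15b encode subunits that direct a phosphatase to eIF2, and they fell by 0.84 ± 0.10 (adjusted p = 0.00392) and by 0.70 ± 0.14 (adjusted p = 0.018), the second call ending without wild type replicate 1 (0.0844) or 2 (0.101) and with no filter (0.0664). Trib3 read -27 and 123 on the knock-out arrays, against 400.2 and 453 on the wild type arrays. Its change of -2.89 ± 0.91 (adjusted p = 0.0579) missed the threshold, while without knock-out replicate 1 it was -1.60 (0.00858) and without knock-out replicate 2 -4.17 (0.00357). The probe sets of Cebpb and Atf3 had changes between -0.04 and 0.02 and did not pass.

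On MG-U74B the list had 2 tested probe sets, which went opposite ways. Chac1, which degrades glutathione, read 1201 and 1229.5 on the knock-out arrays, against 2669 and 2467 on the wild type arrays, and fell by 1.06 ± 0.10 (adjusted p = 0.00834). The cystine transporter gene Slc7a11 read 727 and 742 in knock-out islets, against 365 and 433 in wild type islets, and rose by 0.85 ± 0.16 (adjusted p = 0.0323). The Chac1 call was lost on leaving out wild type replicate 1 (adjusted p = 0.103) or 2 (0.106) and with no variance trend (0.0506), and that of Slc7a11 without any 1 of the 4 arrays (0.0977 to 0.164), with no filter (0.0629) and with no variance trend (0.0771). These falls and the rise stood beside the islet, acinar and immune marker sums given above.

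Several genes of that list are known for an element bound by ATF4 with CEBP partners. The letters TGATGNAAN, on either strand, in the window of 250 bases before to 50 after the RefSeq start were found for 6 of the 11 list genes with a window (54.5%), namely Asns, Atf3, Chac1, Nupr1, Slc7a11 and Trib3, against 1215 of 27025 genes (4.5%). The list holds genes known for this element, so the share is not independent evidence. Of the 6, Asns, Nupr1 and Chac1 fell, Slc7a11 rose, and Atf3 and Trib3 did not pass. Atf4, Atf5, Ddit3, Ppp1r15a and Ppp1r15b fell and were not among the 6, and a gene without a window was not searched. Of the 46 translation factors with a window 2 (4.35%) held the letters, Eef2k and Eif2s3x. Stretches of 3 genes of the list that fell and of the member Eef2k are shown, in GRCm38.p6, with 15 bases on each side and the 9 letters in capitals, printed along the strand on which the letters read.
Asns (chr6:7693209-7693247, minus strand): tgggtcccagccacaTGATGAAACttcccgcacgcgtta
Nupr1 (chr7:126625558-126625596, plus strand): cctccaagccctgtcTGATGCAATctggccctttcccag
Chac1 (chr2:119351033-119351071, minus strand): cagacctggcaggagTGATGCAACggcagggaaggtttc
Eef2k (chr7:120851089-120851127, minus strand): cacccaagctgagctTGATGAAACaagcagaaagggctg
Counted along the gene, the first of these letters lies 23 bases before the annotated start in Asns, 111 in Nupr1, 194 in Chac1 and 85 in Eef2k. A match describes the letters and is not a measured binding site. Eif4ebp1 has no window in the table used.

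Factors that select the start codon or join the subunits had 1 rise and 2 falls among 6 tested probe sets on MG-U74A, near the 23.9% and 29.0% of all tested. Eif5, the GTPase-activating partner of eIF2, read 776 and 741 on the knock-out arrays, against 1375 and 1368 on the wild type arrays, and fell by 0.83 ± 0.05 (adjusted p = 5.77e-04). Eif1b, a relative of the start codon sensor eIF1, read 833 and 751 in knock-out islets, against 1279 and 1245 in wild type islets, and fell by 0.66 ± 0.07 (adjusted p = 0.00262). Both calls held under the 11 alternatives with the knock-out arrays below. Eif1ax, the X-linked gene of eIF1A, read 663 and 713 on the knock-out arrays, against 476 and 519.6 on the wild type arrays, and rose by 0.45 ± 0.07 (adjusted p = 0.0104), a call lost on leaving out wild type replicate 1 (adjusted p = 0.0687). On MG-U74B its 165199_f_at probe set, of the class that can match several related transcripts, read 3211 and 3686 in knock-out islets, against 2204 and 2438 in wild type islets. It rose by 0.56 ± 0.12 (adjusted p = 0.0372). That call ended without any 1 of the 4 arrays (0.0786 to 0.228), with no filter (0.134) and with no variance trend (0.147). The other tested Eif1ax probe sets there stood at 0.40 and 0.21 and did not pass (adjusted p = 0.603 and 0.642). They were far dimmer, between 49.9 and 207 on all arrays.

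The autosomal relative Eif1a had probe sets at -0.28 and 0.00 that did not pass. On 103708_at it read 198 and 262 on the knock-out arrays, against 315 and 252 on the wild type arrays, and on 93058_at 314 and 351 in knock-out islets, against 335 and 328 in wild type islets, with overlap on each. Eif5b, the GTPase that joins the subunits, read on MG-U74A 166 and 191 on the knock-out arrays, against 171 and 177 on the wild type arrays, a change of 0.03 ± 0.12 (adjusted p = 0.857) with overlap. On MG-U74B its 111103_at probe set read 1459 and 914 in knock-out islets, against 276 and 589 in wild type islets. That change of 1.46 ± 0.41 (adjusted p = 0.0774) did not overlap and missed the threshold, so the probe sets of Eif5b differed in size of change. Eif1ad stood at -0.17 ± 0.34 (adjusted p = 0.755) on MG-U74B.

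Among subunits of eIF3, the scaffold that holds the small ribosomal subunit, 6 of 10 tested on MG-U74A fell, 3 rose and 1 did not pass, where 29.0% of all tested probe sets fell and 23.9% rose. The falls were led by Eif3j1, a loosely bound subunit, which read 498 and 519 on the knock-out arrays, against 944 and 954 on the wild type arrays, and fell by 0.87 ± 0.05 (adjusted p = 6.83e-04). The core subunit gene Eif3a read 503 and 491 in knock-out islets, against 836 and 827 in wild type islets, and fell by 0.71 ± 0.05 (adjusted p = 0.00102). Eif3b, also of the core, read 813 and 769.8 on the knock-out arrays, against 1126 and 1169.8 on the wild type arrays, and fell by 0.52 ± 0.05 (adjusted p = 0.00262). In none of these did the genotypes overlap, and the 3 calls held under the 11 alternatives. Smaller falls were those of Eif3m (-0.26 ± 0.06, adjusted p = 0.0229), Eif3e (-0.24 ± 0.07, adjusted p = 0.0486) and Eif3c (-0.18 ± 0.03, adjusted p = 0.013). These 3 calls were lost on leaving out wild type replicate 1 (adjusted p = 0.128, 0.176 and 0.144 in that order) and without wild type replicate 2 (0.115, 0.185 and 0.109), and with no variance trend (0.0721, 0.11 and 0.0968). Those of Eif3m and Eif3e also ended with no filter (0.0731 and 0.135), and that of Eif3e with a constant of 5% (0.0503) and with a replicate block (0.0589).

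The eIF3 subunits that rose were Eif3d, Eif3k and Eif3l. Eif3d, a subunit that can itself bind the cap of some mRNAs, read 1141 and 1204 on the knock-out arrays, against 673 and 684 on the wild type arrays, and rose by 0.77 ± 0.05 (adjusted p = 8.66e-04). Eif3k, of a peripheral pair of subunits, read 1997 and 1833 in knock-out islets, against 1298 and 1370.2 in wild type islets, and rose by 0.51 ± 0.06 (adjusted p = 0.00419). Its partner Eif3l read 1750.4 and 1914 on the knock-out arrays, against 1407 and 1402 on the wild type arrays, and rose by 0.38 ± 0.06 (adjusted p = 0.0077). Knock-out arrays were above wild type arrays in all 3, and the call of Eif3l was lost without wild type replicate 1 (0.0577) or 2 (0.0597). Another Eif3l probe set on MG-U74A, 162283_r_at, was too dim to test, at -0.3 and 2.9 in knock-out and 20.1 and 19.7 in wild type islets. With no filter it passed as a fall (adjusted p = 0.0149). A dimmer probe set of Eif3d on MG-U74B read 119.8 and 286 on the knock-out arrays, against 221 and 168 on the wild type arrays. Its knock-out replicates lay on either side of the wild type pair (-0.04 ± 0.46, adjusted p = 0.959). Eif3i on MG-U74B stood at -0.05 ± 0.23 (adjusted p = 0.888).

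Eif6, which keeps the large subunit from joining too early, read on MG-U74A 720.1 and 989 on the knock-out arrays, against 710.3 and 497 on the wild type arrays, a change of 0.49 ± 0.24 (adjusted p = 0.156) without overlap. On MG-U74B its probe set read 1342 and 1889 in knock-out islets, against 1599 and 1408 in wild type islets, with overlap (0.08 ± 0.19, adjusted p = 0.782). Eif5a, whose product helps ribosomes through difficult peptide bonds, was below 0 on all 4 arrays of MG-U74A, and Eif5a2 read between -17.9 and 27.4 on MG-U74B, so neither was tested. In all 32 member probe sets were not tested, and 7 genes had no tested probe set, namely Eef1g, Eif2ak2, Eif2s3y, Eif4e, Eif4h, Eif5a and Eif5a2. Eif2s3y, the Y-linked counterpart of Eif2s3x, read 41.1 and 41.4 on the knock-out arrays, against 80.2 and 70.9 on the wild type arrays. The wild type arrays were the higher ones, on a probe set of the class that can match related transcripts. Xist, the RNA of the inactive X chromosome, read 182 and 212 in knock-out islets, against 395 and 397 in wild type islets on MG-U74A, and fell by 0.93 ± 0.10 (adjusted p = 0.00364), while the Y-linked genes Kdm5d and Uty read between -26.2 and 24.6 on all arrays of that type. The sex of the mice is not in the labels, and its part in the values of Eif2s3x, Eif2s3y and Eif1ax was not tested.

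MG-U74B gave few calls. In simulated data the fit recovered 15.2% of changes of 2 log2 units on this type. A probe set that did not pass there is therefore not shown to be unchanged. Of the 35 member probe sets on MG-U74B 23 were tested. Of these 2 rose (Eef1aknmt and Eif1ax), where 8.59% of all 7861 tested probe sets rose, and 1 fell (Eif2ak1, on 111092_at), where 8.87% fell. The remaining 20 did not pass, and 17.5% of all tested probe sets were called in either direction. By at least 1 log2 unit 0 members rose and 1 fell, against 5.75% and 6.51% of all tested. The genotypes did not overlap for 11 of the 23, against 65.0% of all tested probe sets, and the median log2 change was 0.10, against 0.11 for all tested. None of the 3 calls outlasted the loss of any 1 array, under which the 1372 calls over the whole array type also became 0 without wild type replicate 1 or 2, 312 without knock-out replicate 1 and 538 without knock-out replicate 2.

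**Figure D3:**
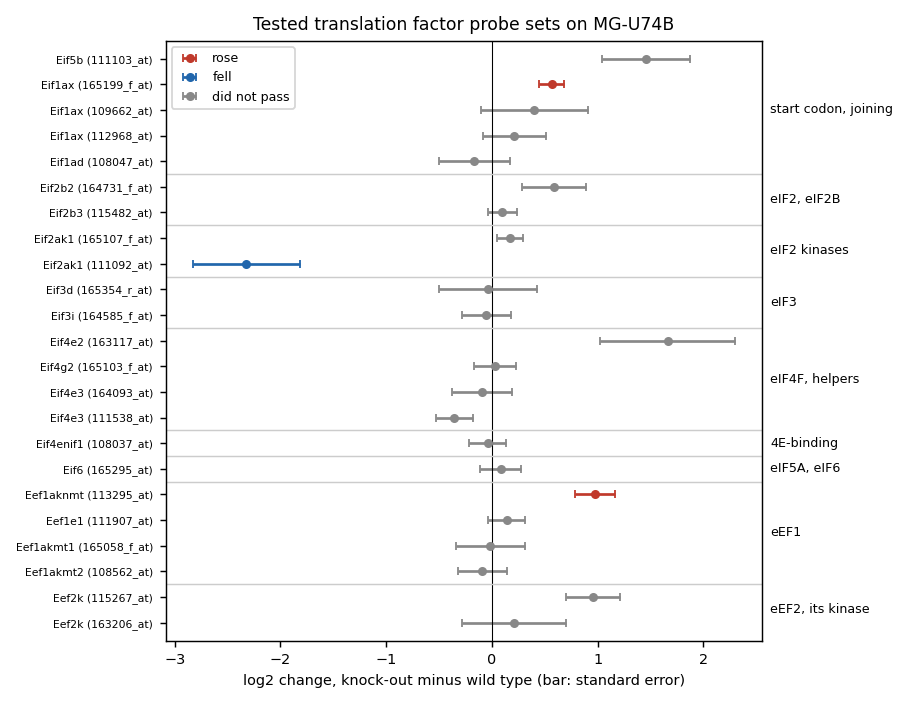
Log2 change (knock-out minus wild type, horizontal axis) of each tested translation factor probe set on MG-U74B, by role; points are the fitted changes from 2 knock-out and 2 wild type arrays and bars their standard errors. The only coloured points are Eef1aknmt at 0.98, Eif1ax at 0.56 and Eif2ak1 at -2.33.

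Genes with several tested probe sets were compared by the sign of the fitted changes. Of 16 genes with more than 1 tested probe set, 9 had changes of 1 sign and 7 had both signs. The 7 were Eef1akmt1, Eif1a, Eif2ak1, Eif3d, Eif4e2, Eif4ebp2 and Eif4g2. In Eef1akmt1, Eif1a, Eif3d, Eif4e2 and Eif4g2 a change was smaller than its standard error, so its sign was not resolved. No gene had tested probe sets called in opposite directions, since in each of the 7 at most 1 tested probe set was called. Over both types 32 probe sets were called, for 30 genes, and for all 32 the genotypes did not overlap.

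The partners of these factors gave further context on MG-U74A. Of 32 tested ribosomal protein probe sets 19 rose and 4 fell, with a median log2 change of 0.47. The shares over all tested probe sets were 23.9% and 29.0%, with a median of -0.09. Rps3, of the small subunit, read 11012 and 10493 on the knock-out arrays, against 3682 and 3800.4 on the wild type arrays, and rose by 1.52 ± 0.04 (adjusted p = 1.48e-04). Rpl10a, of the large subunit, read 6227 and 5960.2 in knock-out islets, against 2056 and 2095 in wild type islets on 100711_at, and rose by 1.54 ± 0.04 (adjusted p = 1.18e-04). The genotypes were well apart in both. The 4 that fell were probe sets of Rps29, Rpl19 and Rps4l, and Rpl19 rose on its other probe set. Without wild type replicate 1 or without wild type replicate 2, 2 fell. Of 23 probe sets of cytosolic tRNA synthetases and their scaffolds 9 rose and 6 fell, with a median of -0.06, set against the same shares over all tested. Gars, which charges the tRNA of glycine, read 886 and 759 on the knock-out arrays, against 1981 and 2042 on the wild type arrays, and fell by 1.27 ± 0.08 (adjusted p = 9.23e-04). Farsa, of the phenylalanine enzyme, read 285 and 279 in knock-out islets, against 45.4 and 66.5 in wild type islets, and rose by 1.94 ± 0.18 (adjusted p = 0.00222). They were the largest fall and the largest rise called in that list on MG-U74A, and the genotypes did not overlap in either.

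Of 9 tested probe sets of termination and recycling factors 4 fell and 0 rose, with a median of -0.23, against 29.0%, 23.9% and -0.09 for all tested probe sets. Gspt1, the GTPase eRF3a that works with the stop codon reader, read 689.5 and 774 on the knock-out arrays, against 1538 and 1557 on the wild type arrays, and fell by 1.06 ± 0.07 (adjusted p = 8.58e-04). Its 3 tested probe sets on MG-U74B stood between 0.00 and 0.17 and did not pass. Etf1 went both ways. On MG-U74A it fell on 96754_s_at (-0.57 ± 0.07, adjusted p = 0.00421) and 96755_at (-0.46 ± 0.09, adjusted p = 0.0151), and its other tested probe sets there did not pass. On MG-U74B its 164468_f_at probe set read 877 and 746 on the knock-out arrays, against 484 and 479 on the wild type arrays. It rose by 0.72 ± 0.15 (adjusted p = 0.0401). Of 5 probe sets of poly(A)-binding proteins and partners 3 fell and 1 rose (median -0.30), against the same shares and median. Paip2b, an inhibitor of the poly(A)-binding protein, read 218 and 222 in knock-out islets, against 789.9 and 785 in wild type islets, and fell by 1.73 ± 0.06 (adjusted p = 2.47e-04). On leaving out either wild type replicate, 2 probe sets of the termination list fell and 0 of the poly(A)-binding list rose. In the termination list 1 rose with quantile normalization, with no filter and with a filter of 50%. Its count of rises also changed on leaving out knock-out replicate 2.

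In signalling to the 4E-binding proteins and eIF4E, 4 of 14 probe sets fell and 3 rose, shares near the 29.0% and 23.9% of all tested probe sets. The list's median was -0.26, against -0.09. Pdcd4, an inhibitor of the helicase eIF4A, read 274 and 300.2 on the knock-out arrays, against 935 and 777 on the wild type arrays, and fell by 1.49 ± 0.11 (adjusted p = 0.00127). Mlst8, a subunit of the mTOR complexes, read 402 and 587 in knock-out islets, against 37.1 and -40.1 in wild type islets on 98513_at, and rose by 3.70 ± 0.51 (adjusted p = 0.00632). The wild type pair lay around 0, so the size depends on the constant added, and its other probe set was too dim to test. Without wild type replicate 1 the list had 2 falls, and without wild type replicate 2 it had 1. On MG-U74B Rptor, another mTOR complex subunit, read -17.7 and 12 on the knock-out arrays, against 251 and 234 on the wild type arrays, and fell by 3.14 ± 0.50 (adjusted p = 0.0206), with the knock-out pair around 0. That call was lost on leaving out wild type replicate 1 (adjusted p = 0.112) or 2 (0.112), without knock-out replicate 1 (0.0636) and with no filter (0.0693).

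**Figure D4:**
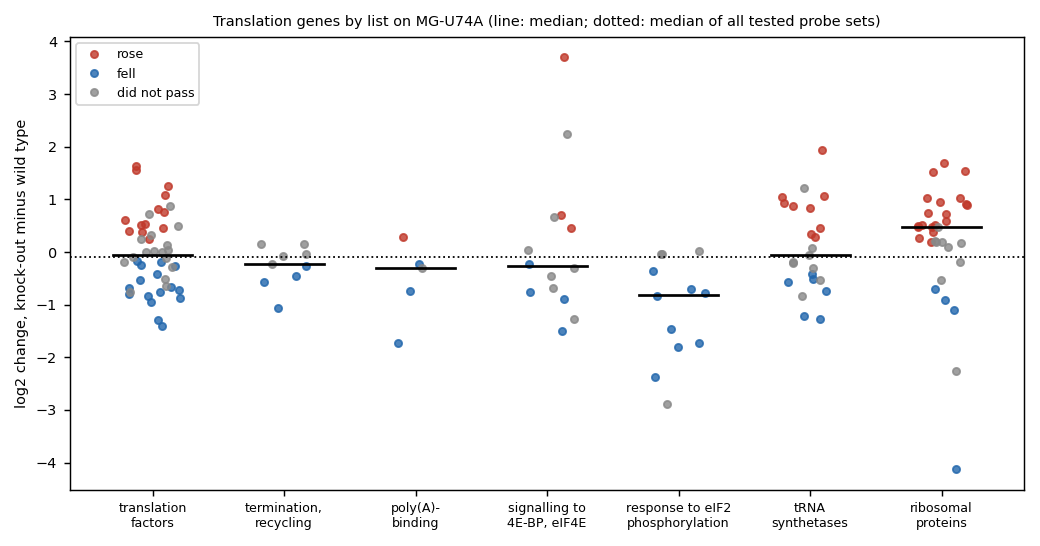
Log2 change (knock-out minus wild type, vertical axis) of every tested probe set on MG-U74A in the translation factors and in 6 lists of genes that work with them; each point is a probe set, black lines are list medians and the dotted line the median of all tested probe sets (-0.09). Ribosomal proteins lie highest by median (0.47) and the response to eIF2 phosphorylation lowest (-0.81).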

How the data were processed

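Total RNA of pancreatic islets was measured on 8 Affymetrix arrays, 2 of knock-out and 2 of wild type islets on each of MG-U74A and MG-U74B. The authors deposited 1 linear intensity per probe set and array, without detection calls. The software that made these values and their background correction are not given in the sources used here. After trimming 2% of probe sets at either end, every array had a mean of 250.0, so no further scaling was needed. Negative values made up 18.4% to 26.7% of an array. The number of arrays limits the precision.

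Values below 0 were set to 0, 25 (10% of the trimmed mean) was added and log2 was taken. Probe sets with a mean below 62.5 (25% of it) and 66 control probe sets per type were not tested, which left 7517 of 12488 on MG-U74A and 7861 of 12477 on MG-U74B. Knock-out was compared with wild type on each type by limma 3.58.1 in R 4.3.3 (lmFit, then eBayes using a mean-variance trend), two-sided, with Benjamini-Hochberg adjustment over all tested probe sets of the type and a threshold of 0.05. With 2 arrays against 2 the smallest p an exact permutation test allows is 0.333. The p-values here therefore depend on spread pooled over probe sets by limma, and nothing says how much of the spread between replicates is technical. Standard deviations are over 2 arrays.

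Probe sets were named from the platform annotation, brought to current symbols through RefSeq (GRCm38.p6, used for names and start windows). A single symbol was given for 10855 probe sets on MG-U74A (several for 396, none for 1237) and for 10603 on MG-U74B (178 and 1696). Of probe sets that match several genes, 1 of them a translation factor, 1 on MG-U74A and 3 on MG-U74B were left out. Full values are given for called members with a change of at least 1, for every tested kinase, 4E-binding protein and elongation factor, and for genes whose probe sets disagree in sign, and the others are given by examples and counts. The members, lists, motifs and tests were chosen with earlier results of these data known. Alternatives were quantile normalization, other constants and filters, no variance trend, a replicate block and leaving out each array. Those run on the partner lists were added after values had been seen. Same-numbered arrays did not deviate together (correlation of their deviations from the genotype means 0.0243 on MG-U74A and 0.0316 on MG-U74B), so the numbers were not taken to pair them. The fit was tested on simulated data first.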

Additional observations from a re-analysis of the deposited data

How the results depend on the processing

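With 2 arrays per genotype, calls on MG-U74A depended on both wild type arrays. The 13 rises among members lay between 8 and 13 when 1 array was left out (8 without wild type replicate 1 or 2), and the 16 falls between 9 and 19 (9 and 10 without those replicates). Under the other alternatives there were 12 to 14 rises and 13 to 17 falls. On MG-U74B the 2 rises became 0 without any 1 array, without the variance trend and with no filter. The single fall became 0 with no filter, with a filter of 50%, with the replicate block and without any 1 array. Of the 32 called probe sets, 32 kept their call with a constant of 20%, 31 with a constant of 5%, 31 with quantile normalization, 31 of 31 fitted with a filter of 50%, 26 with no variance trend, 25 with no filter, 28 and 26 without knock-out replicates 1 and 2, and 16 and 18 without wild type replicates 1 and 2. No called member reversed. Fitted with the replicate block 29 kept it, 3 lost it (Eif4ebp2, Eif3e and Eif2ak1) and 1 other probe set passed, with 14 falls on MG-U74A, and since same-numbered arrays share only a number this does not bear on the size of an effect. Signs were followed only for called members and for tested kinases, 4E-binding proteins and elongation factors. Among these, reversals were those of uncalled members when 1 array was left out. The signs of other uncalled members were not followed. Over those 4 fits the log2 change of Eef1b2 lay between -0.20 (without knock-out replicate 1) and 0.47, and that of Eif4enif1 between -0.21 and 0.13 (without wild type replicate 2). Eef1akmt2 lay between -0.25 and 0.07 (without wild type replicate 1, and 0.04 without knock-out replicate 1), and Eef1e1 between -0.06 (without knock-out replicate 2) and 0.33. Eef2k on 163206_at lay between -0.45 (without knock-out replicate 1) and 0.86, and Eef1akmt1 on MG-U74B between -0.43 and 0.41 (without knock-out replicate 2, and 0.01 without wild type replicate 2). Over all tested probe sets of MG-U74B the 1372 calls became 764 with no filter and 638 with no variance trend, and over those of MG-U74A the 3974 became 2311 and 2265 without wild type replicates 1 and 2. The cause was not tested.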
